A study of Mus musculus with 48 samples.

Results

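Knockdown of Stat3 in cultured mouse sensory neurons was compared with a control siRNA over all genes. The libraries were chosen by the transfected siRNA that the labels name: 4 libraries with an siRNA pool against Stat3 (siStat3) and 4 with a control siRNA (siCONTROL), 8 of the 48 samples of the series. Of 34183 genes in the table, 14876 had enough counts to be tested. All libraries came from dissociated dorsal root ganglion cells of adult wildtype animals, grown in Neurobasal-A medium with B27 supplement and transfected with Dharnacon ON-TARGETplus pools by Dharnafect 2 (names spelled as in the labels). RNA of every siRNA group was taken at 42 h. The same table holds 4 libraries each for siRNA pools against Atf3, Atf4, Jun, Klf6, Rest and Alyref (siAtf3, siAtf4, siJun, siKlf6, siRest, siAlyref). It also holds 4 untransfected libraries labelled 0 h (time0). The libraries of the 6 other pools were fitted together with siStat3 and siCONTROL, so they share in the estimate of the spread behind the p-values. Apart from this, the other pools and time0 are used below only as a setting for the Stat3 result. The labels do not say whether the replicates came from separate animals or cultures, and the p-values therefore speak only of variation among these libraries, part of which may be technical. A single pool was used, and its sequences are unknown here, so effects of losing Stat3 cannot be told apart from other effects of that pool, and only transcripts were measured.

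STAT3 is a transcription factor of the Janus kinase pathway. Cytokines of the interleukin-6 family (Il6, Lif, Cntf, Osm and others) bind receptors that share the subunit gp130, encoded by Il6st, and the receptor-bound kinases JAK1, JAK2 and TYK2 phosphorylate STAT3, which then enters the nucleus and binds DNA as a dimer. Among its best known targets is Socs3, whose product inhibits the same receptors, and in dorsal root ganglion neurons STAT3 is known for its activation after axon injury and its part in axon regrowth.

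Total counts were between 3854725 and 5083837 in the siStat3 libraries and between 3437120 and 6621566 in the siCONTROL libraries, and levels are given as CPM, counts scaled to library size. Neuronal markers were abundant in both groups: the 15 pan-neuronal genes summed to between 13978 and 18032 CPM in siStat3 and between 15683 and 19853 CPM in siCONTROL. Glial markers were present too, with 13 Schwann cell genes at between 1937 and 2252 CPM against between 1994 and 2294 CPM, and 10 satellite glia genes at between 1041 and 1243 CPM against between 1091 and 1227 CPM. In such mixed cultures fewer cells of a type and less RNA per cell cannot be told apart.

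At an adjusted p under 0.05 (edgeR's quasi-likelihood test, Benjamini-Hochberg over the 14876 genes) 177 genes (1.19%) were higher and 273 genes (1.84%) lower in siStat3 than in siCONTROL. Of these, 72 (0.484%) were at least 2-fold higher and 43 (0.289%) at least 2-fold lower. The median log2 fold change of all genes was 0.00. The shares of 1.19% and 1.84% are the background for the list counts against siCONTROL below. These calls come from a fit of all 32 siRNA libraries, and with siStat3 and siCONTROL fitted alone 88 genes were higher and 116 lower. With the replicate number as a block, 307 genes were higher and 444 lower, and these include 177 and 272 of the genes called in the main fit. The 4 libraries of one group lay wholly above the 4 of the other for 518 genes (3.48%) higher in siStat3 and for 608 genes (4.09%) lower.

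**Figure D1:**
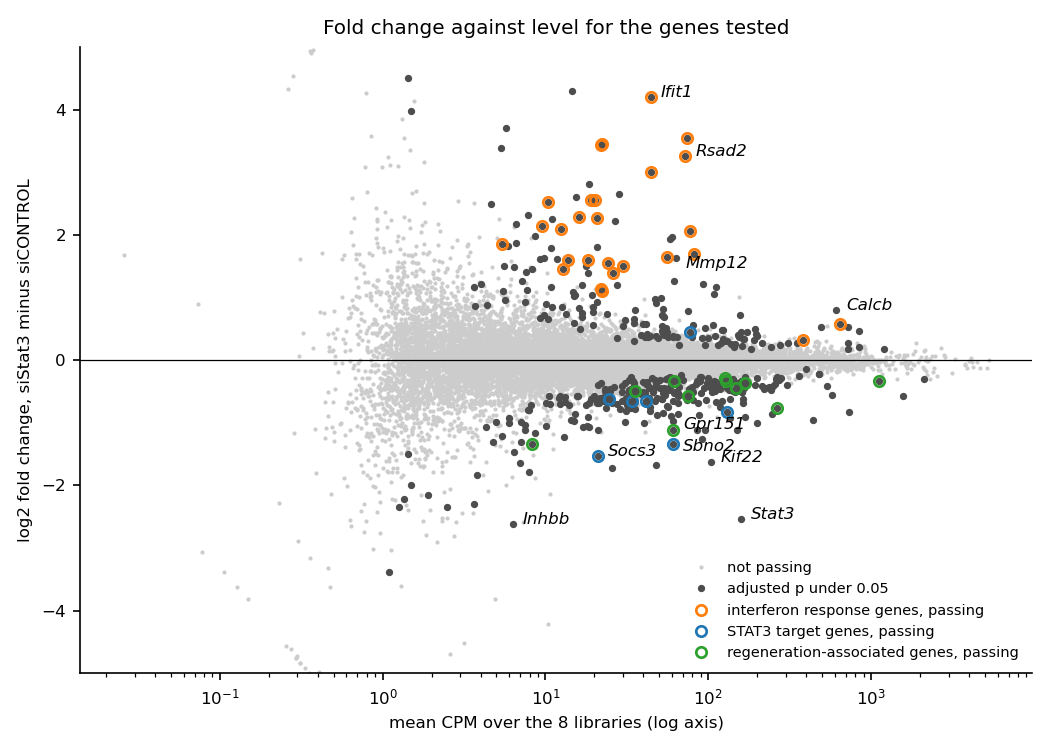
Each point is a gene tested, with its mean CPM over the 8 libraries on a log axis and its log2 fold change of siStat3 over siCONTROL; dark points have an adjusted p under 0.05 and circles mark those that belong to 3 gene lists. The interferon response genes lie above 0 and the STAT3 target and regeneration-associated genes mostly below it, and 58 genes lie outside the axis range.

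The target itself was reduced in every library. Stat3 measured 56.3, 50.4, 49.95 and 32.3 CPM in siStat3 replicates 1 to 4 and 261, 284, 264 and 283 CPM in siCONTROL. The groups were far apart, with replicate 4 of siStat3 the lowest, and 17.3% of the control transcript remained (log2 fold change -2.53, SE 0.089, adjusted p = 2.65e-18). The reduction was of like size against the mean of the 6 other knockdowns (-2.54).

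The clearest fall among the genes that act back on the pathway was that of Socs3. Its values were 12.1, 11.4, 10.2 and 9.87 CPM in siStat3 and 32.1, 35.4, 27.9 and 30.6 CPM in siCONTROL. Every siStat3 library lay at less than the lowest control library (log2 fold change -1.53, SE 0.15, adjusted p = 8.08e-08), and the fall was also found against siJun (-1.12), siKlf6 (-1.51) and siAtf3 (-1.11). Socs3 was the only member called among 15 genes of STAT feedback and inhibition (1 lower, 0 higher, median log2 fold change -0.10). Cish, another cytokine-induced inhibitor, had -0.89 (adjusted p = 0.0821), and passed with the replicate block (-0.93, adjusted p = 0.0220).

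Sbno2, which encodes a transcriptional co-regulator known to be induced by IL-10 through STAT3, fell as uniformly. It measured 34.9, 39.1, 32.3 and 32.5 CPM in siStat3 and 88.4, 92.2, 88.4 and 81.1 CPM in siCONTROL, with no overlap (log2 fold change -1.34, SE 0.081, adjusted p = 2.51e-12). Against each of siJun (-1.42), siKlf6 (-1.24) and siAtf3 (-1.45) it was lower as well.

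The stretches of 200 bases before the transcription starts of Socs3 and Sbno2 are shown because both hold the palindrome TTCNNNGAA that STAT dimers are known to bind. They are RefSeq sequences on build GRCm38.p6, written on the strand of the gene with the motif in capitals. The Socs3 stretch is chr11:117969367-117969566, minus strand, with the motif beginning 154 bases before the start. Sbno2 has 3 starts in the table, of which 2 hold the motif: chr10:80101188-80101387 and chr10:80102703-80102902, both minus strand, with the motif beginning 24 and 26 bases before the start. Below, these 2 are labelled first and second in this order of coordinates, so the second lies upstream of the first on the gene's strand.
Socs3: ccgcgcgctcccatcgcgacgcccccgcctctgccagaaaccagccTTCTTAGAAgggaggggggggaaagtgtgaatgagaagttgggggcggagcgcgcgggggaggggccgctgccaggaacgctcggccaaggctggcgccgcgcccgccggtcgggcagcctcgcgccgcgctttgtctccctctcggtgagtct
Sbno2, first start: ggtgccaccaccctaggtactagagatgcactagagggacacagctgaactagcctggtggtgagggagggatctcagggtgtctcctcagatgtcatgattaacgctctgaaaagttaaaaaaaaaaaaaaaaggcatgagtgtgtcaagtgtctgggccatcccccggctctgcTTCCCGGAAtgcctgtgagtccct
Sbno2, second start: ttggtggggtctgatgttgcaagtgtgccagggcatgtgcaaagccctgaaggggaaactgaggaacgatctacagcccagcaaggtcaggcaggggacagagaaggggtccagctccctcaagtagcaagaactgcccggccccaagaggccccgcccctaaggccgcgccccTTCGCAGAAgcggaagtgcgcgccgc

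The promoter table held 11038 of the 14876 genes tested (74.2%). TTCNNNGAA, which reads the same on both strands, occurred in 6.78% of the 300-base windows of all genes tested, in 10.2% of those of genes called lower and in 10.3% of those of genes called higher. In the list of STAT3 targets 8 of 37 windows (21.6%) held it. A match describes these letters only, and binding was not measured.

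**Figure D2:**
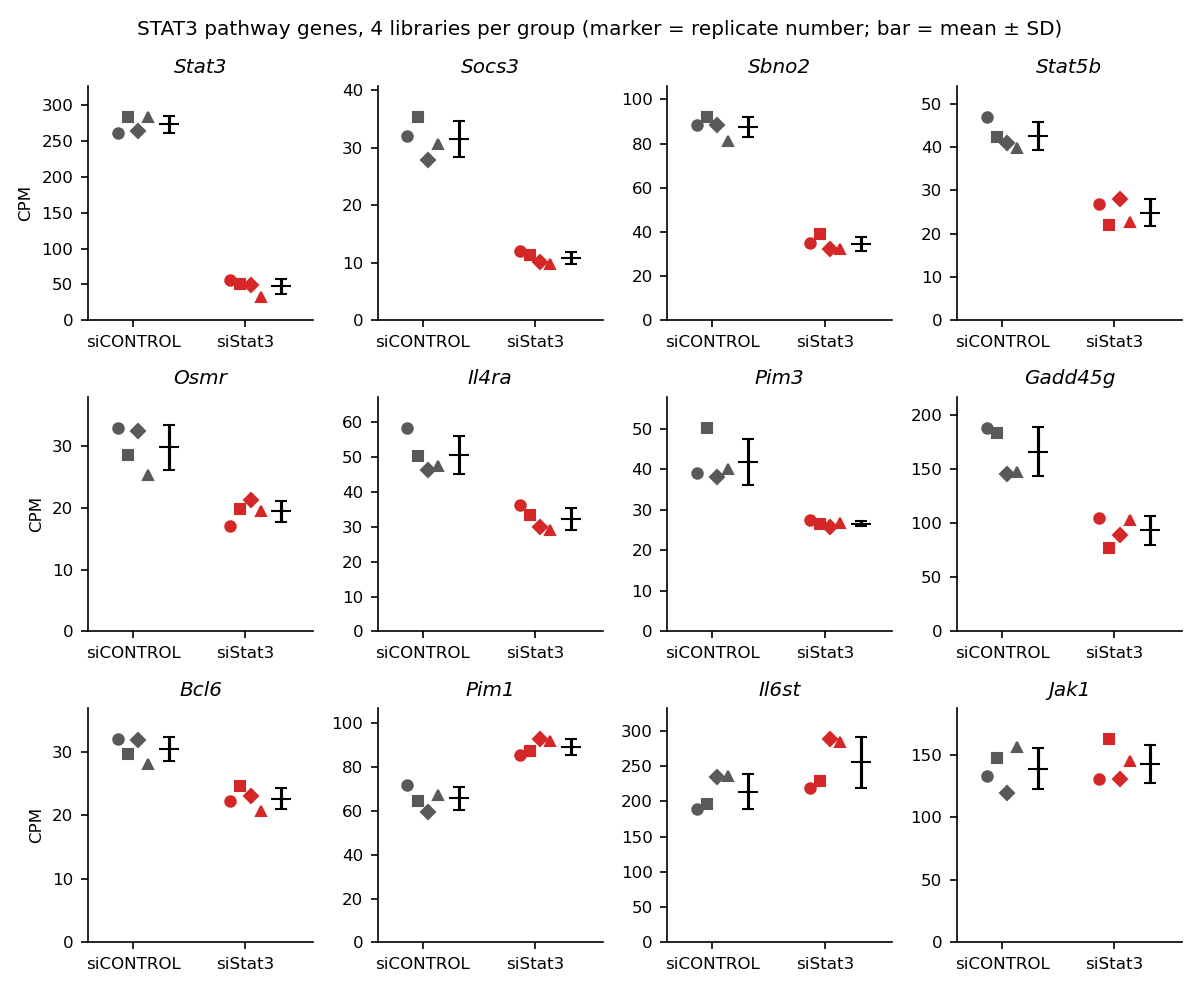
CPM of 12 genes of the STAT3 pathway in the 4 siCONTROL and 4 siStat3 libraries; each marker shape is a replicate number, and the bar beside the points is the mean with its SD. Stat3, Socs3, Sbno2, Stat5b, Osmr, Il4ra, Pim3, Gadd45g and Bcl6 lie lower in every siStat3 library, Pim1 lies higher, and Il6st and Jak1 overlap between the groups.

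Upstream of STAT3 little passed the test. Of the 7 ligands of the gp130 family that were tested none was called by edgeR, DESeq2 or limma, and 1 had an unadjusted p under 0.05 (Osm was not tested, with 0 counts in both groups). Of 10 receptors and Janus kinases only Osmr, the oncostatin M receptor subunit, was called: it measured 17.1, 19.8, 21.2 and 19.5 CPM in siStat3 and 33.0, 28.5, 32.5 and 25.3 CPM in siCONTROL. The groups did not overlap (log2 fold change -0.62, SE 0.12, adjusted p = 0.00209). Jak1 was at 131, 163, 131 and 145 CPM against 133, 147, 120 and 156 CPM (0.03, 95% interval -0.16 to 0.23), and Tyk2 had 0.20 (-0.13 to 0.52). Il6st, the shared gp130 subunit, had 0.25 (adjusted p = 0.200), and was called higher with the replicate block (0.25, adjusted p = 0.0294).

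The other STATs went in both directions. Stat2, which carries type I interferon signals, rose (1.26, SE 0.28, adjusted p = 0.00681), a call lost without replicate 4 of siStat3 (adjusted p = 0.0578). Stat5b, a mediator of growth hormone and cytokine signals, fell: 26.9, 21.9, 28.0 and 22.7 CPM in siStat3 against 47.0, 42.3, 41.0 and 39.9 CPM. The Stat5b groups were separate (-0.77, SE 0.13, adjusted p = 0.000309), and the fall was of like size against siJun (-0.72), siKlf6 (-0.72) and siAtf3 (-0.65). Stat5a had -0.73 (adjusted p = 0.118) and Stat6 0.13 (adjusted p = 0.483), and Stat4 had too few counts to be tested.

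Of 35 tested genes on a list of known STAT3 targets, 6 were lower and 1 higher (of all genes 1.84% and 1.19%). The median log2 fold change was -0.20 beside 0.00 for all genes. With the replicate block 11 were lower and 3 higher. Besides Socs3, Sbno2 and Osmr the lower members were Pim3, a survival kinase (-0.66), Il4ra, the interleukin-4 receptor chain (-0.65), and Gadd45g, a stress and growth arrest gene (-0.83). Gadd45g measured 105, 76.8, 88.6 and 102 CPM in siStat3 and 188, 183, 145 and 147 CPM in siCONTROL. The member that went the other way was Pim1, a kinase of the same family as Pim3: it measured 85.3, 87.1, 92.9 and 91.7 CPM against 71.6, 64.6, 59.3 and 67.2 CPM. Pim1 did not overlap between the groups (0.45, SE 0.069, adjusted p = 0.000148), and it was also higher than in siJun (0.68), siKlf6 (0.65) and siAtf3 (0.78). Bcl6, a transcriptional repressor that was not on the list and was picked after its values were seen, fell (-0.43, SE 0.079, adjusted p = 0.00123). Its call was lost when the 2 groups were fitted alone (adjusted p = 0.0952).

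Many genes of the interferon response, the antiviral programme that interferons switch on in cells, rose. Of 32 tested genes on that list 27 were higher in siStat3 and none was lower (of all genes 1.19% and 1.84%). The median log2 fold change of the list was 1.91. The 5 that did not pass were Ifit2, Mx1, Psmb9, H2-K1 and Trim30a, and their estimates were above 0. The 15 genes that the naming rule took for the largest folds higher were Iigp1, Ifit1, Gbp6, Ifit3, Usp18, Ifit3b, Ifi211, Rsad2, Isg15, Apol9a, Rtp4, Irgm2, Gbp3, Cmpk2 and Ifi44. Of these, 9 are on the interferon list and 6 are not (Iigp1, Gbp6, Ifi211, Apol9a, Rtp4 and Irgm2). Members of the Ifit, Gbp, Irgm and Apol9 families have close copies that can exchange reads, so their single values are less certain than the group.

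Ifit1, an RNA-binding antiviral protein, measured 37.0, 35.1, 108 and 156 CPM in siStat3 and 4.20, 4.23, 6.15 and 3.24 CPM in siCONTROL (18.5-fold higher, log2 fold change 4.21, SE 0.69, adjusted p = 0.00033). Isg15, a ubiquitin-like modifier, measured 42.8, 32.5, 99.0 and 143 CPM against 6.29, 9.70, 14.7 and 7.42 CPM (3.01, SE 0.59, adjusted p = 0.00231). In both genes all siStat3 libraries exceeded all control libraries, and replicates 3 and 4 of siStat3 stood well above replicates 1 and 2. Rsad2, which encodes viperin, measured 68.2, 95.0, 123 and 238 CPM against 10.8, 16.7, 13.5 and 13.0 CPM (3.25, SE 0.46, adjusted p = 3.72e-05). Igtp, an interferon-inducible GTPase, had 81.4, 73.1, 99.0 and 129 CPM against 21.0, 28.2, 25.6 and 21.8 CPM (1.97, SE 0.24, adjusted p = 4.87e-06). Its siStat3 libraries were more alike than those of Ifit1. Trim30d had 69 counts over the siStat3 libraries and 0 over the control libraries, at least 26.3-fold higher against a floor of 3 counts over the group.

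The same group held regulators and effectors besides these. Irf1, an interferon regulatory factor, rose (1.10, SE 0.20, adjusted p = 0.00136), as did Irf7 (2.28, SE 0.52, adjusted p = 0.0092), the chemokine gene Cxcl10 (1.51, SE 0.30, adjusted p = 0.00228) and B2m, the light chain of MHC class I (0.58, SE 0.15, adjusted p = 0.0193). Without replicate 4 of siStat3 the calls of Irf7 (1.77, adjusted p = 0.0794), Ifi44 (2.09, adjusted p = 0.0521), Nlrc5 (1.17, adjusted p = 0.0576) and B2m (0.43, adjusted p = 0.136) were lost, and that of B2m also in 3 other fits that left out 1 library, siCONTROL replicates 2 and 4 and siStat3 replicate 3 (adjusted p up to 0.0873). With the 2 groups fitted alone the calls of Irf7 (adjusted p = 0.0672), Nlrc5 (0.0796) and B2m (0.136) were lost. Cd274, which encodes the ligand PD-L1 and was picked after its values were seen, rose 3.51-fold (adjusted p = 0.00114). In Irf7 the siStat3 libraries 3 and 4 stood apart, with 33.5 and 50.5 CPM against 11.3 and 11.1 CPM in libraries 1 and 2 and between 1.62 and 7.35 CPM in siCONTROL. Without replicates 3 and 4 of both groups 1 of the 32 genes was called and the median was 1.11, and without replicates 1 and 2 of both groups 25 were called and the median was 2.37. Leaving out replicate 4 of siStat3 left 20 calls, and fitting the 2 groups alone left 21.

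Promoters of 3 of these genes are shown because they hold the interferon-response type motif GAAANNGAA (on the reverse strand TTCNNTTTC), searched on both strands after the interferon result was seen. Each is the 200 bases before the start in RefSeq, build GRCm38.p6, on the gene's strand, with this motif in capitals and, in Igtp, also the STAT palindrome TTCNNNGAA. The stretches are chr19:34640689-34640888 (plus strand) for Ifit1, chr4:156200819-156201018 (minus strand) for Isg15 and chr11:58199356-58199555 (plus strand) for Igtp. Matches overlap in Ifit1 and Isg15.
Ifit1: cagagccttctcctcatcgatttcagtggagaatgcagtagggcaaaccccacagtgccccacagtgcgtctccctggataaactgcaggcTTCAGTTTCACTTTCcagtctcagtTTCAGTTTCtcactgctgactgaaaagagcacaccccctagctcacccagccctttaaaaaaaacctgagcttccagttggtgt
Isg15: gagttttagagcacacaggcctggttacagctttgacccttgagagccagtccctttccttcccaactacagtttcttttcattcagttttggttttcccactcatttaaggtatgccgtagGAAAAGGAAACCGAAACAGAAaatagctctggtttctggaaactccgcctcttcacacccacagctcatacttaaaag
Igtp: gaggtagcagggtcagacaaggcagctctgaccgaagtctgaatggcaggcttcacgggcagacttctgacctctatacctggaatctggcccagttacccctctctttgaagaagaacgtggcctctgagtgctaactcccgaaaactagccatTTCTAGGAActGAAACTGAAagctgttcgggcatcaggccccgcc

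GAAANNGAA occurred in 7.01% of the windows of genes tested, in 24.1% of those of genes called higher and in 6.23% of those of genes called lower. In the interferon list 17 of 34 windows held it. The motif letters say nothing of which factor, if any, was bound here.

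The interferon list was also compared between siStat3 and the other knockdowns. Against the mean of the 6 other knockdowns, where 4.89% of genes were called higher, 28 of the 32 genes were higher in siStat3 (median 1.47). Against siJun (5.4% of genes called higher) 24 were higher, and against siAtf3 (7.48%) 18 were. Against siKlf6, where 2.76% of genes were called higher, 1 of the 32 was higher (Nlrc5, 1.11, adjusted p = 0.0352) and the median was 0.12. Ifit1 measured 40.0, 21.0, 228 and 63.3 CPM in the siKlf6 libraries, so the siStat3 minus siKlf6 difference was -0.11 with a 95% interval of -1.19 to 0.97. In the remaining groups Ifit1 lay between 2.60 CPM and 26.0 CPM; both values are single libraries, and the range overlaps siCONTROL. These intervals are wide, and a difference between siStat3 and siKlf6 in most of these genes was not detectable with 4 libraries each. Replicate 1 of siKlf6 had 1539198 counts, fewer than any siStat3 or siCONTROL library.

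Iigp1 and Igtp, both interferon-inducible GTPase genes, were among the genes that differed between siStat3 and siKlf6. Gbp2, Gbp3 and Gbp7, GTPase genes on the interferon list, were not called in that comparison. Interferon-inducible GTPase genes were not examined as a whole. Iigp1, which the list did not hold, measured 24.9, 30.1, 19.9 and 36.3 CPM in siStat3, 3.17, 3.49, 11.9 and 4.79 CPM in siKlf6, and 0.2997, 1.72, 1.20 and 2.09 CPM in siCONTROL. All 4 siStat3 libraries exceeded every other siRNA library, with a log2 fold change of 4.31 (SE 0.39, adjusted p = 1.69e-08) against siCONTROL and of 2.16 (adjusted p = 9.47e-05) against siKlf6. Igtp had 30.5, 31.98, 99.0 and 47.9 CPM in siKlf6, and was higher in siStat3 by 0.81 (adjusted p = 0.0328), a gene picked after its values were seen.

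**Figure D3:**
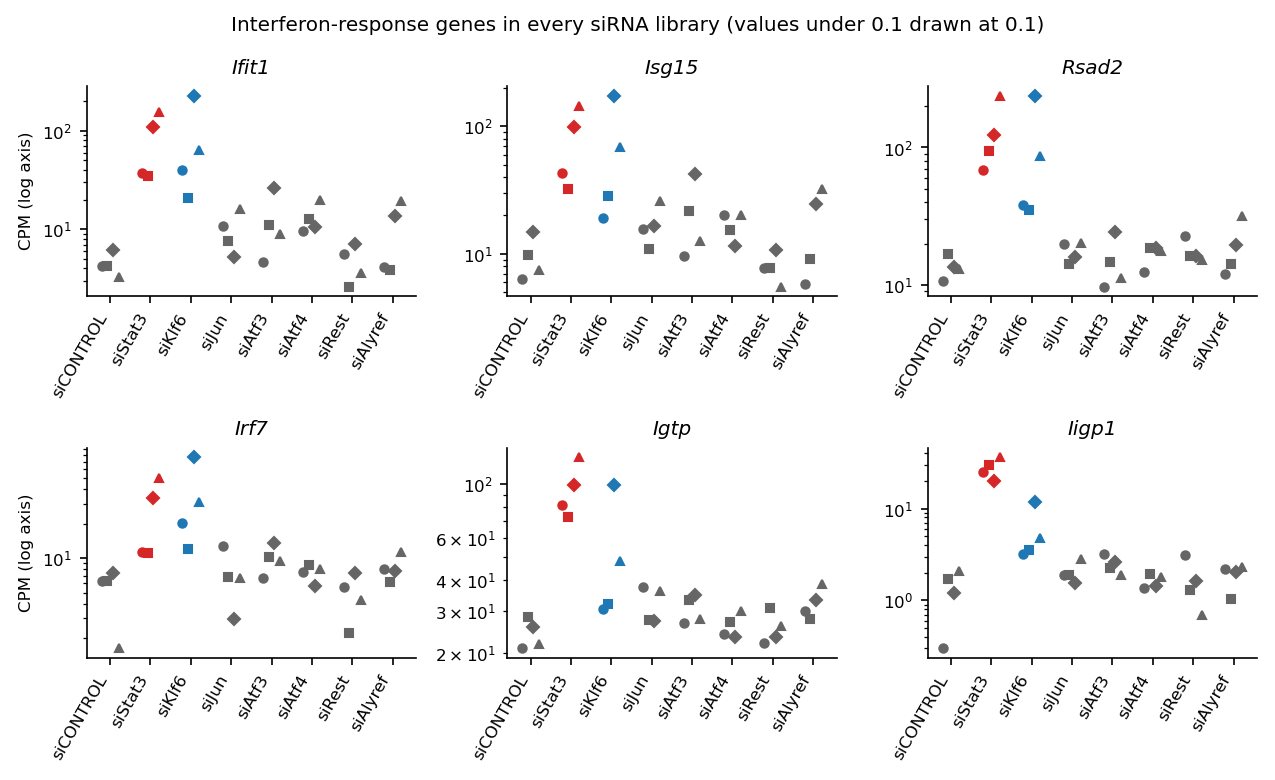
CPM on a log axis of 6 interferon-response genes in all 32 siRNA libraries; marker shapes follow the order of the replicate numbers within a group, siStat3 is red and siKlf6 blue. Both groups lie above siCONTROL in Ifit1, Isg15 and Rsad2, and in Iigp1 the siStat3 libraries (19.9 to 36.3 CPM) lie above all others.

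Transcripts of interferons and of immune cells were looked at beside this result. Ifnb1, the interferon-beta gene, had 10 counts in siStat3, all in replicate 3, 13 in siKlf6, all in replicate 4, 6 in siAtf4, and 0 in every library of the other siRNA groups, siCONTROL included. Ifng and the 4 interferon-alpha genes examined had 0 counts in siStat3 and siCONTROL, and the receptor genes Ifnar1 (0.18, adjusted p = 0.444) and Ifnar2 (0.33, adjusted p = 0.145) were not called. Of 12 macrophage markers 4 were tested and none was called by edgeR or limma (1 had an unadjusted p under 0.05 and 1 was called by DESeq2). Over the 12 markers the summed level, on unscaled library totals, was between 49.3 and 75.2 CPM in siStat3 and between 30.8 and 46.2 CPM in siCONTROL, and without Cd68 between 5.61 and 12.2 CPM against between 7.40 and 10.3 CPM. The marker of highest level was Cd68, a lysosomal gene, at 47.3, 64.1, 42.0 and 52.0 CPM against 24.0, 40.2, 26.8 and 31.8 CPM (0.73, adjusted p = 0.0595; with the replicate block adjusted p = 0.00745). Summed over 4 libraries, the counts in siStat3 and in siCONTROL were 66 and 93 for Csf1r, 20 and 21 for Cd74, 12 and 15 for Aif1, 4 and 12 for C1qb, 4 and 6 for Mrc1, 3 and 3 for Adgre1, and 1 and 0 for Ptprc. C1qa and C1qc had 0 counts in both groups. Tyrobp had 0 counts in siStat3 and 19 in siCONTROL, all in replicates 1 and 3, and Fcer1g had 20 in siStat3, all in replicates 1 and 2, and 7 in siCONTROL, all in replicate 1. The part of these cells and of Ifnb1 in the interferon result was not tested.

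Some genes associated with axon regeneration were lower. Of 35 tested members 11 were lower, none was higher and 24 did not pass (edgeR), beside 1.84% of all genes lower and 1.19% higher. The list had a median log2 fold change of -0.30 and 7 estimates above 0. The called members were Fst, Gpr151, Sprr1a, Chl1, Sox11, Klf6, Tubb6, Klf7, Atf3, Smad1 and Cacna2d1. With the replicate block 19 were lower, and with siStat3 and siCONTROL fitted alone 4 were. In that last fit Gpr151, Sprr1a and Klf6 passed, and the calls of the other 8 genes were lost (adjusted p between 0.0675 for Tubb6 and 0.162 for Cacna2d1). Leaving out 1 library, the Klf7 call was lost without siStat3 replicate 1 (adjusted p = 0.0527) and the Smad1 call without siStat3 replicate 2 (0.0597). The Cacna2d1 call was lost without siStat3 replicate 1 (0.133) or siCONTROL replicate 4 (0.107), the Tubb6 call without siStat3 replicate 3 (0.0525) or siCONTROL replicate 2 (0.0510), and the Sox11 call without siCONTROL replicate 3 (0.0669) or siStat3 replicate 4 (0.0600). Fst and Atf3 are given below.

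Gpr151, an orphan receptor gene induced in injured sensory neurons, changed most firmly: 42.6, 42.2, 32.1 and 37.0 CPM in siStat3 against 86.6, 88.7, 78.3 and 80.9 CPM in siCONTROL. The groups were well apart (log2 fold change -1.12, SE 0.10, adjusted p = 1.1e-08), and Gpr151 was also lower than in siJun (-0.76), siKlf6 (-1.79) and siAtf3 (-0.84). Sprr1a, a small proline-rich protein of regrowing axons, measured 219, 199, 178 and 189 CPM against 362, 389, 304 and 272 CPM (-0.76, SE 0.16, adjusted p = 0.0044). It was lower than in siKlf6 (-1.19) but higher than in siJun (0.81). Atf3, an injury-induced transcription factor, measured 1056, 1016, 886 and 990 CPM against 1285, 1353, 1096 and 1250 CPM, without overlap (-0.34, SE 0.093, adjusted p = 0.0399). Its call was lost in 6 of the 8 fits that left out 1 library (all but siCONTROL replicate 3 and siStat3 replicate 1), with an adjusted p up to 0.149 without siStat3 replicate 3.

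Several of these genes rose in culture before any knockdown is considered. In a separate fit of siCONTROL against time0, where 28.7% of 13448 genes were higher and 29.2% lower, Sprr1a was called higher by 9.29 on the log2 scale, Gpr151 by 5.40, Sox11 by 3.31 and Atf3 by 2.65. At 0 h Sprr1a lay between 0 and 0.696 CPM and Gpr151 between 0.846 and 2.74 CPM, so the sizes of their rises rest on few counts. Socs3 had fallen between 0 h and 42 h (-1.98) and Stat3 had -0.14 (adjusted p = 0.0784). Ifit1 was lower at 42 h than at 0 h (-2.10), but the interferon list went both ways. Of its 29 members tested in this fit 5 were higher and 12 lower at 42 h. That fit and the Stat3 comparison share the siCONTROL libraries, so the values are set side by side only.

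Against the mean of the 6 other knockdowns the list was split: 6 of the 35 genes were higher in siStat3 and 7 lower, with a median of -0.02. Of all genes 4.89% were called higher and 3.35% lower in this comparison. Atf3 had 0.20 there (adjusted p = 0.0845) and Tubb6 -0.02, whereas Gpr151 (-1.07), Chl1 (-0.73) and Sprr1a (-0.51) were lower. This mean includes siAtf3, siJun and siKlf6, whose own targets Atf3, Jun and Klf6 are on the list. For these genes the comparison cannot show whether other pools share their fall. The growth cone protein gene Gap43 had -0.22 against siCONTROL (adjusted p = 0.264) and -0.05 against the other knockdowns, and passed against siCONTROL with the replicate block (adjusted p = 0.0401).

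**Figure D4:**
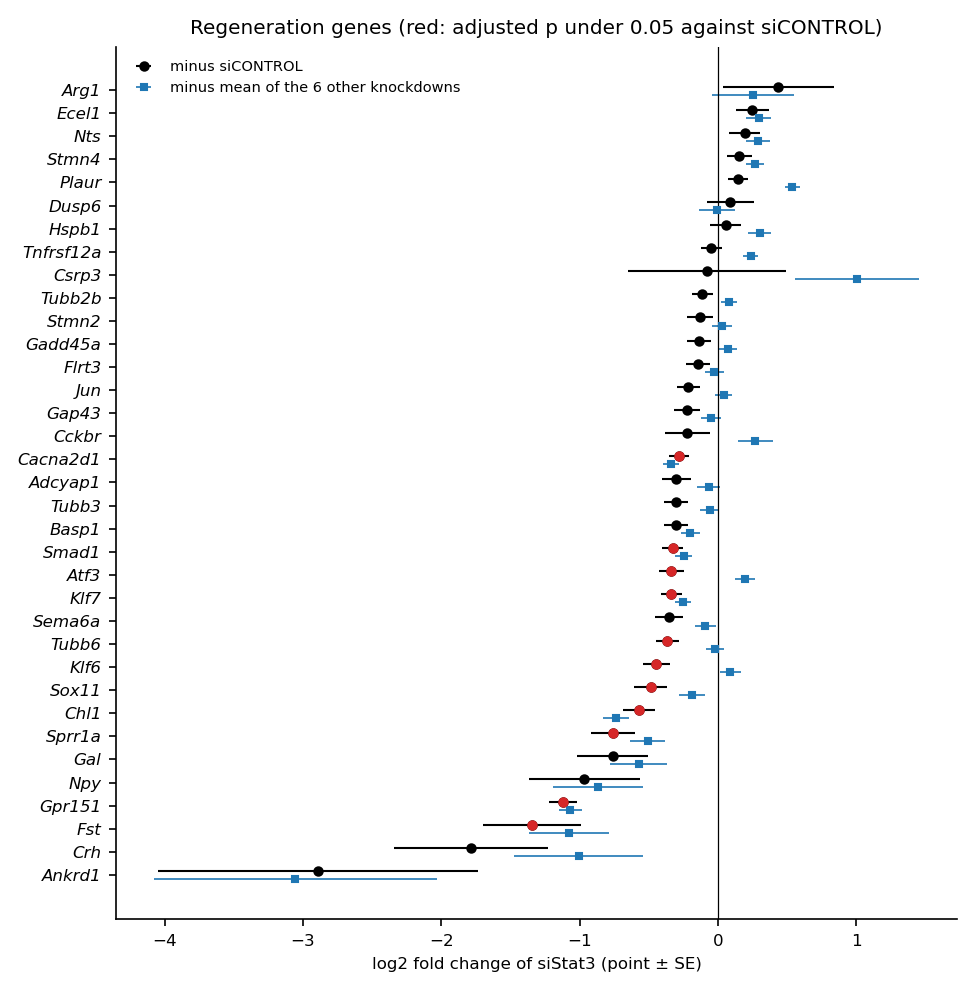
Log2 fold change with SE of each of the 35 regeneration-associated genes in siStat3, against siCONTROL (circles, red where the adjusted p was under 0.05) and against the mean of the 6 other knockdowns (blue squares). The circles lie mostly left of 0, with a median of -0.30, and the squares lie around 0, with a median of -0.02. The mean behind the squares includes the pools that target Atf3, Jun and Klf6.

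The genes targeted by the other pools were measured in the Stat3 knockdown too. Of 7 genes on their list, which also holds Cebpg, 2 were lower (Klf6 and Atf3) and 0 higher, and 3 were lower with the replicate block. Atf4 had 0.10 (adjusted p = 0.834), Rest -0.13 (0.839), Alyref -0.10 (0.846) and Cebpg 0.34 (0.732). Klf6 fell (120, 126, 135 and 119 CPM against 173, 166, 155 and 188 CPM), with no overlap between the groups (-0.45, SE 0.097, adjusted p = 0.00595). Atf3 is given above, and Jun was at 260, 273, 235 and 263 CPM against 296, 323, 275 and 302 CPM (-0.21, adjusted p = 0.192), a difference called with the replicate block (adjusted p = 0.0359). Of 16 AP-1 and immediate early genes 2 were lower, Jund (-0.43) and the early response gene Ier3 (-0.66), and none higher. With the block 5 of the 16 were called, and in the main fit 1.84% of all genes were lower.

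The 15 largest falls included genes of activin signalling, a transporter and a kinesin. Inhbb, the beta-B subunit of activin and inhibin, measured 2.88, 2.11, 0.452 and 1.57 CPM in siStat3 and 11.4, 14.9, 6.66 and 10.7 CPM in siCONTROL (6.11-fold lower, log2 fold change -2.61, SE 0.43, adjusted p = 0.000298). Fst, which encodes the activin-binding protein follistatin, measured 5.34, 5.81, 2.49 and 4.93 CPM against 10.5, 13.1, 7.18 and 16.5 CPM (-1.34, SE 0.35, adjusted p = 0.0267). In both genes the groups were separate and replicate 3 was the lowest library of each group. The Fst call was lost in 4 of the 8 fits that left out 1 library, with an adjusted p of up to 0.117 (without siStat3 replicate 3).

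Slc10a6, a steroid sulfate transporter gene, measured 3.91, 3.70, 2.03 and 4.49 CPM against 13.2, 11.6, 9.74 and 14.8 CPM (-1.79, SE 0.24, adjusted p = 1.65e-05). Sdc1, the cell surface proteoglycan syndecan-1, measured 67.8, 56.0, 47.9 and 43.3 CPM against 153, 116, 136 and 113 CPM (-1.26, SE 0.15, adjusted p = 2.29e-06). Neither gene overlapped between the groups, and both were lower than in siJun, siKlf6 and siAtf3 as well. Kif22, a chromosome-binding kinesin, measured 68.5, 42.2, 40.0 and 51.6 CPM against 144, 200, 143 and 139 CPM (-1.63, SE 0.18, adjusted p = 7.86e-07). The Kif22 difference was smaller against siJun (-0.61) and siAtf3 (-0.66) than against siCONTROL, and was -1.42 against siKlf6. Of the 10 cell cycle genes on their own list 0 were called by edgeR, DESeq2 or limma and 0 had an unadjusted p under 0.05, with a median of 0.05.

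Other genes among the 15 largest falls were Prokr2, a prokineticin receptor, Cdkn3, a cell cycle phosphatase, Rasl11a, a Ras-like protein, Calhm5, a channel family member, and Mettl7a3 and Methig1, a pair of close copies that can exchange reads. The call of Prokr2 (-1.63, adjusted p = 0.0331) was lost in each of the 8 fits that left out 1 library, with an adjusted p up to 0.112 (without siStat3 replicate 4), and that of Methig1 in 5 of them, up to 0.0791 (without siCONTROL replicate 4), and with the 2 groups fitted alone (0.153). 2 of the 15 are predicted genes without a name. Among genes picked after their values were seen, Etv5, an ETS factor downstream of ERK signalling, fell from 133, 146, 111 and 129 CPM to 57.8, 64.4, 63.5 and 54.5 CPM (-1.11, SE 0.14, adjusted p = 4.87e-06). Dusp5, a phosphatase that acts on ERK, rose (0.82, SE 0.10, adjusted p = 4.87e-06). Npy1r, a receptor for neuropeptide Y, fell (-1.11, SE 0.19, adjusted p = 0.000379).

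Some rises lay outside the interferon response. Mmp12, a secreted matrix protease gene picked after its values were seen, measured 89.6, 96.9, 108 and 88.4 CPM in siStat3 and 35.4, 23.8, 38.8 and 25.7 CPM in siCONTROL. Its siStat3 libraries all exceeded the controls (1.64, SE 0.16, adjusted p = 8.08e-08), and it was higher than in siJun (3.42), siKlf6 (0.76) and siAtf3 (2.58). Hrk, a pro-apoptotic BH3-only gene, rose to 5.76, 4.49, 5.65 and 6.73 CPM from 2.40, 2.50, 2.05 and 2.78 CPM (1.21, SE 0.23, adjusted p = 0.00181), the single call among 21 genes of apoptosis and the p53 response (2 with the block). Against siAtf3 Hrk had -0.06. Of 17 regulators of the integrated stress response 2 were higher, Ddit3, which encodes CHOP (0.54), and Sesn2, a stress-induced inhibitor of mTORC1 (0.41), and none was lower. With the block 3 of the 17 were higher, and in the main fit 1.19% of all genes were higher.

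Among nociceptor markers the peptide genes Calcb and Tac1 rose. Calcb, which encodes beta-CGRP, measured 844, 796, 776 and 695 CPM in siStat3 and 427, 416, 553 and 381 CPM in siCONTROL. The groups were separate (0.81, SE 0.11, adjusted p = 2.71e-05), and Calcb was also higher than in siJun (0.34), siKlf6 (1.59) and siAtf3 (0.49). Tac1, the substance P precursor gene, measured 176, 182, 236 and 186 CPM against 121, 108, 142 and 103 CPM (0.71, SE 0.17, adjusted p = 0.0151), but was lower than in siJun (-1.40), and its call was lost in 3 of the 8 fits that left out 1 library, with an adjusted p up to 0.0816 (without siStat3 replicate 3). Of 18 nociceptor markers these 2 rose and Gfra3, the artemin receptor, fell (-0.37, adjusted p = 0.0487), with a median of 0.02, and 5 were called with the block. The Gfra3 call was lost in 5 of the 8 fits that left out 1 library (adjusted p up to 0.206, without siCONTROL replicate 3), with no filter on low counts (adjusted p = 0.0634), with other size factors (adjusted p = 0.0530) and with the 2 groups fitted alone (adjusted p = 0.216). Scg2, a secretogranin of dense-core vesicles picked after its values were seen, rose (0.53, SE 0.09, adjusted p = 0.000501).

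Of 15 pan-neuronal markers 2 fell (of all genes 1.84%), with a median of -0.13, and 4 were called with the block. The 2 were Rbfox3, which encodes NeuN (-0.45, adjusted p = 0.00508), and the RNA-binding protein gene Elavl4 (-0.51, adjusted p = 0.0349). With the 2 groups fitted alone neither passed (adjusted p = 0.103 for Rbfox3 and 0.140 for Elavl4). The Elavl4 call was lost in 4 of the 8 fits that left out 1 library (adjusted p up to 0.209, without siCONTROL replicate 2). Of 28 voltage-gated ion channels 0 passed with edgeR, DESeq2 or limma, 4 had an unadjusted p under 0.05 and 1 passed with the block (median 0.02). Of 12 markers of large-diameter neurons 0 passed with any of the 3 tools and 0 had an unadjusted p under 0.05 (median -0.05). Of 31 growth cone and cytoskeleton genes Crmp1 (-0.39) and Tubb6 (-0.37) were lower, and 7 were called with the block. Of 21 cholesterol synthesis genes Msmo1 (-0.41) was lower and none was higher, and its call was lost without siCONTROL replicate 3 (adjusted p = 0.0646), without siStat3 replicate 2 (0.0566) and with the 2 groups fitted alone (0.0730); 3 were called with the block.

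The lists for other cells of the culture gave a single call. Of 13 Schwann cell, 10 satellite glia and 9 fibroblast genes 0 were called by edgeR, DESeq2 or limma, with medians between -0.02 and -0.01, and of these 1 satellite glia gene had an unadjusted p under 0.05 and 1 passed with the block. Of 11 endothelial and mural genes Rgs5, a pericyte regulator of G-protein signalling, was lower (-0.32, adjusted p = 0.0276), a call lost in 6 of the 8 fits that left out 1 library (adjusted p up to 0.103, without siStat3 replicate 2) and with the 2 groups fitted alone (0.0905). Of the 13 mitochondrially encoded genes 0 were called by edgeR, DESeq2 or limma and 1 had an unadjusted p under 0.05, with a median of -0.13.

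**Figure D5:**
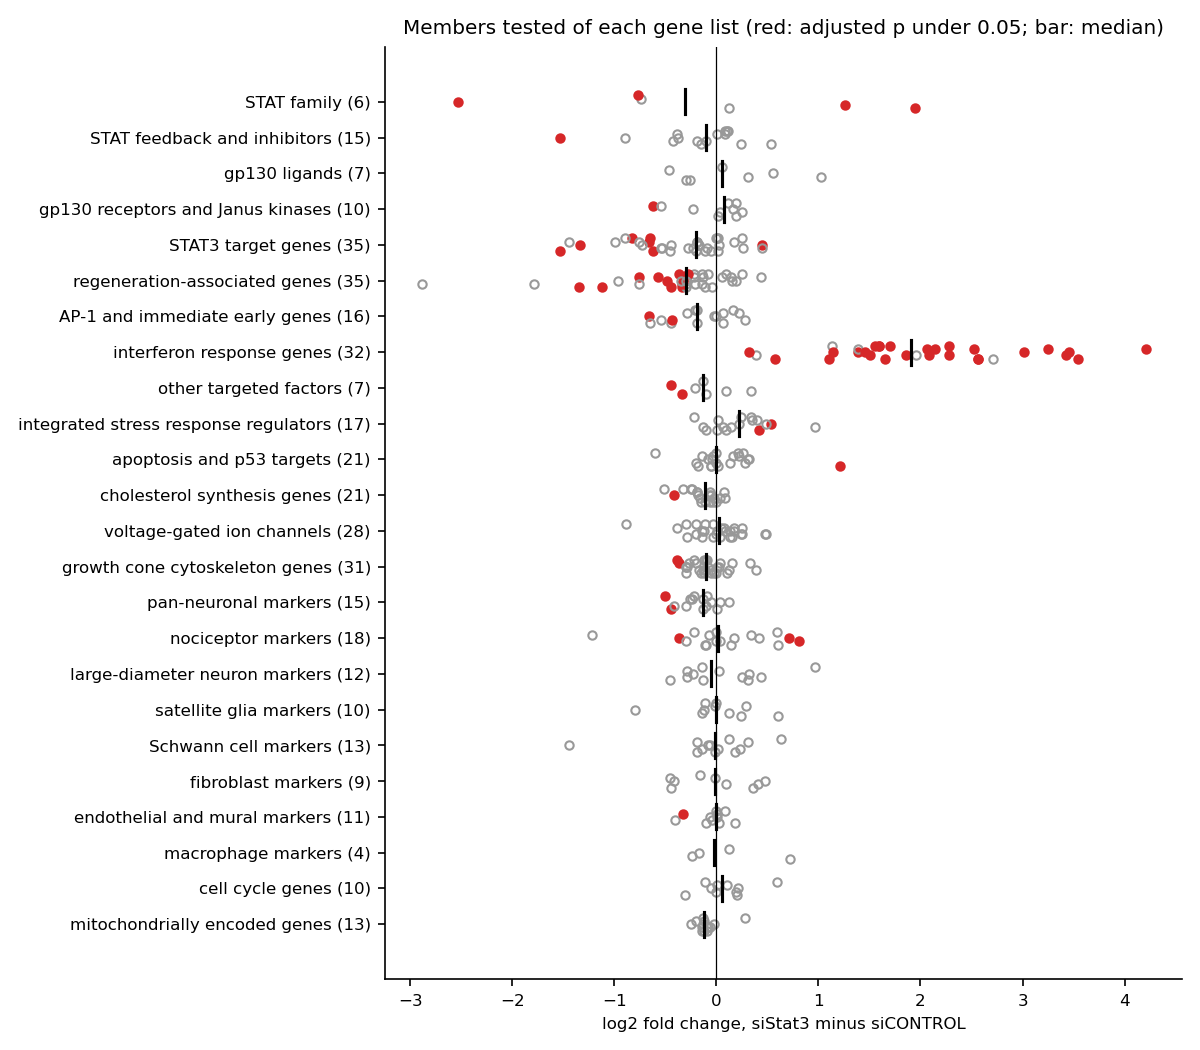
Log2 fold change of siStat3 over siCONTROL for the tested members of each gene list (number tested in parentheses), filled red where the adjusted p was under 0.05; the vertical bar is the median of the list. The interferon list has its median at 1.91, while the medians of the other lists lie between -0.30 and 0.23.

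The called genes were also set against the other knockdowns, in comparisons that share the siStat3 libraries. Of the 177 higher genes 158 were called higher against the mean of the 6 other pools, and of the 273 lower genes 207 were called lower, with 0 called in the opposite direction. Of all genes 4.89% were called higher and 3.35% lower there. Because the 177 and 273 genes were chosen by the same siStat3 values, agreement was favoured in advance. Against siJun, siKlf6 and siAtf3, 5.4%, 2.76% and 7.48% of all genes were called higher and 4.54%, 2.76% and 4.62% lower. Of the called genes a smaller set of 28 higher and 57 lower passed against each of these groups. Stat3, Socs3, Sbno2, Stat5b, Gpr151, Etv5, Sdc1 and Slc10a6 were among those lower, and Pim1, Mmp12, Calcb, Igtp and Iigp1 among those higher. Slc28a2, a nucleoside transporter gene of low level, was among the 10 with the largest fall against the other pools: it measured 0.411, 0, 1.13 and 1.12 CPM in siStat3 and 2.70, 2.66, 3.42 and 3.71 CPM in siCONTROL (-2.16, SE 0.43, adjusted p = 0.00262). Its call was lost with the 2 groups fitted alone (adjusted p = 0.0837).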

How the data were processed

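Stranded mRNA libraries (Illumina Stranded mRNA Prep, per the labels' protocols) were, per the submitters' processing notes, quantified with kallisto on build GRCm39. No source used here gives its version or the annotation release. The deposited table holds the authors' expected counts per gene, not whole and not normalized. Here they were rounded to whole numbers. Symbols came from a GENCODE mouse table and matched 32470 of 34183 identifiers (95.0%), and promoters came from RefSeq. The second table of the series, on transfected mRNAs, was not used. Some results are not reported here.

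The 8 siRNA groups (32 libraries) were fitted together with edgeR 4.0.16 in R 4.3.3 (filterByExpr, TMM, quasi-likelihood F test, Benjamini-Hochberg over 14876 genes). CPM are TMM-scaled, and the SE is the log2 fold change over the square root of F. The code was tested on simulated counts. siCONTROL and time0 were fitted separately (13448 genes). Named were Stat3, the 15 largest folds each way with an adjusted p under 0.05, at least 5 CPM and no overlap, the 10 largest each way against the 6 other knockdowns, and list members; others are marked. The members and lists were chosen with earlier results of these data known.

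The labels give siStat3 and siCONTROL the same replicate numbers. Deviations from the group means of same-numbered libraries correlated at 0.20, 0.45, 0.37 and 0.25 over 7421 genes, all over 0.1. Of pairs with unlike numbers, siStat3 4 with siCONTROL 3 (0.19), 1 with 2 (0.11) and 3 with 4 (0.10) also passed 0.1. The others lay between -0.41 and 0.001. Over all 8 siRNA groups, 95 of 105 same-numbered pairs passed 0.1, with a median of 0.25. The numbers may therefore pair the libraries, and the block was run as an alternative. The main calls and adjusted p come from the fit without the block. The block values stand beside results they change. Alternatives were DESeq2 1.42.0, limma 3.58.1, RLE size factors, other filters, the block, the 2 groups alone and leaving out libraries.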

Additional observations from a re-analysis of the deposited data

Results flagged for a closer look

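In 5 of 164 sets of 4 libraries examined, 1 library lay far from the other 3 (gap over range above Dixon's critical value for 4 samples); chance flags about 1 in 20 such sets. Lifr, the LIF receptor gene, was lowest in replicate 1 of siStat3, with a ratio of 0.894 (145 CPM against 202, 206 and 209 CPM), and in replicate 1 of siCONTROL, with a ratio of 0.847 (132 CPM against 184, 185 and 177 CPM). Cacna2d1, a calcium channel subunit gene, was lowest in replicate 1 of siStat3 (99.9 CPM against 119, 118 and 121 CPM), with a ratio of 0.851. Kif22 was highest in replicate 2 of siCONTROL (200 CPM against 144, 143 and 139 CPM), with a ratio of 0.91. Npy1r was highest in replicate 2 of siStat3 (5.81 CPM against 4.32, 4.52 and 4.26 CPM), with a ratio of 0.832.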

How the results depend on the processing

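Against 177 higher and 273 lower genes, the replicate block gave 307 and 444, siStat3 and siCONTROL fitted alone 88 and 116, and the 2 groups alone with the block 177 lower. Added after seeing the data, replicates 1 and 2 only gave 12 and 66 and replicates 3 and 4 only 74 and 93. Leaving out 1 library gave between 129 and 188 higher and between 206 and 259 lower. Counts with DESeq2, limma, RLE size factors and the other filters, and the counts against the other knockdowns, stayed within 1.5 times. No named gene changed sign in a called value. Of the named genes the block changed the calls of Cish, Il6st, Gap43, Jun and Cd68, given above, and no other call; list counts that it moved stand beside the lists. With the 2 groups fitted alone and the block added, a fit chosen after seeing the data, further calls were lost for Hrk (adjusted p = 0.0719), Ifi44 (0.0659), Npy1r (0.0606), Osmr (0.0576), Rasl11a (0.0725), Sesn2 (0.0666) and Stat2 (0.0506), while Rbfox3 (0.0902) and Slc28a2 (0.0921) again did not pass. Without a filter on low counts Atf3 did not pass (0.0562). Of 86 named genes called, 23 lost the call without 1 library. At between 3437120 and 6621566 counts per siStat3 or siCONTROL library, genes of a few CPM rest on few counts. Replicates 1 of siKlf6 (1539198) and siRest (1937372), which are also in the main fit, had fewer. The cause of the changes was not tested.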
